A study of Mus musculus with 10 samples.

Results

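The 9 genes Hoxa5, Hoxa7, Hoxa9, Hoxa10, Hoxb3, Hoxb4, Hoxb5, Meis1 and Pbx3 were chosen by symbol from the 55573 genes that were counted, as HOXA and HOXB genes of blood stem cells and the MEIS and PBX partners of their proteins. All 9 had counts in each of the 10 libraries, and all 9 passed the filter on low counts. The libraries were made from hematopoietic stem and progenitor cells (HSPCs) of the bone marrow of C57BL/6 mice aged 16 weeks. Every mouse, controls included, had received 500 cGy of total body radiation 6 weeks before. Subcutaneous saline had been given to the mice of the 5 Saline libraries, and subcutaneous epidermal growth factor (EGF), which binds the receptor EGFR, to those of the 5 EGF libraries. The study had no unirradiated group, and the labels give neither the gate by which HSPCs were isolated nor the dose of EGF. Nor do they state how many mice stand behind a library, so the p-values below measure the spread between libraries, which may be partly technical.

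HOX genes encode homeodomain transcription factors and lie in the clusters A to D, where their order along the chromosome follows the order in which they are used along the body axis of the embryo. In adult marrow, genes of the A and B clusters are read in stem cells and early progenitors and are shut down as the cells mature. HOX proteins bind DNA together with the TALE homeodomain proteins: PBX proteins form pairs with them on DNA, and MEIS1 joins PBX and the posterior HOX proteins such as HOXA9 and stabilises the complex. High HOXA9 and MEIS1 together keep myeloid progenitors from maturing and are a hallmark of several acute leukemias.

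The 4 HOXA genes lie on the minus strand of chromosome 6 (GRCm38, GENCODE M21). Hoxa5 spans chr6:52201754-52204587, Hoxa7 spans chr6:52214491-52221854, Hoxa9 spans chr6:52223100-52231089 and Hoxa10 spans chr6:52231197-52240854. The 3 HOXB genes lie on the plus strand of chromosome 11, with Hoxb5 at chr11:96303336-96306121, Hoxb4 at chr11:96318267-96321638 and Hoxb3 at chr11:96323326-96347930. Meis1 lies elsewhere on chromosome 11, at chr11:18879817-19018985 on the minus strand, and Pbx3 at chr2:34171457-34373142 on the minus strand. Mir196b lies within an exon of Hoxa9 and Mir10a lies upstream of Hoxb4. The mature forms of both are shown, with the seed (bases 2 to 8) in capitals, because these miRNAs are encoded within the HOX clusters and their hairpins had their own entries in the count table (RefSeq, GRCm38.p6).
miR-196b-5p: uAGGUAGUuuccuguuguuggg
miR-10a-5p: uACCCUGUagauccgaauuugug
The hairpin entry of Mir196b had 0 counts and that of Mir10a had 2 counts over the 10 libraries. How reads over the exon that Hoxa9 shares with Mir196b were assigned is not given in the sources used here.

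RefSeq gave an upstream sequence for 6 of the 9 genes. The 250 bases before the start of Hoxa9 (chr6:52227371-52227620, minus strand) and of Meis1 (chr11:19018970-19019219, minus strand) are printed, because these were the members with the smallest p-values in the comparison below. The Hoxa9 start given by RefSeq lies inside the wider GENCODE span of the gene, and its window holds no annotated exon base. Of the Meis1 window, 16 bases are exonic in GENCODE. Capitals mark a match to CCAAT, the core that the factor NF-Y binds.
Hoxa9: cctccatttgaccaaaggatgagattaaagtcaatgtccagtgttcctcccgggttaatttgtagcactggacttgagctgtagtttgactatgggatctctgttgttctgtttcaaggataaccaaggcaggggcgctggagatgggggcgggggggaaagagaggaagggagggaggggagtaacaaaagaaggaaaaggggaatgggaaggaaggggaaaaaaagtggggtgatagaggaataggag
Meis1: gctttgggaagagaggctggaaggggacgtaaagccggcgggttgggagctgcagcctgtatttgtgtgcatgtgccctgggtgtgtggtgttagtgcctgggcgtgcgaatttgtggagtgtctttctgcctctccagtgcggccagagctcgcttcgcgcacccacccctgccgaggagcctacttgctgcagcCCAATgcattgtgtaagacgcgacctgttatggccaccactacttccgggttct
Both strands were searched for TGACAG (MEIS), TGATNNAT (PBX with HOX), CACGTG (USF) and CCAAT (NF-Y), motifs of which none contains another. Meis1 had 1 match, CCAAT at 54 to 50 bases before the start, and Hoxa9 had none. CCAAT is present in 33.8% of all 32851 windows of this length, TGACAG in 15.9%, TGATNNAT in 7.68% and CACGTG in 6.02%. Neither window held the MEIS or PBX-HOX letters.

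Total counts were similar in all libraries, between 6805106 and 8370820. EGF replicate 5 stood apart: 12731 genes had a count there, against 18734 to 20046 in each of the other 9 libraries. Of the 12 stem and progenitor cell markers, all 12 had counts. Their summed level was 1747 to 2048 CPM (the count of a gene scaled to the TMM-adjusted size of its library) in the Saline libraries, 1952 to 2210 in EGF replicates 1 to 4 and 2003 in EGF replicate 5, where Procr alone was at 0. Of the 8 T and NK cell markers, 7 were at 0 in EGF replicate 5, and the sum of the 8 there was 3.92 CPM against 31.8 to 57.3 in the other libraries. Nkg7 alone made up the 3.92 CPM and had 36.9 to 48.5 CPM with saline. The other 7 had Saline medians of 0.267 to 1.65 CPM, and a count of 0 still allows 0.420 CPM in EGF replicate 5. The medians of Cd3d (0.401), Trbc1 (0.357), Trbc2 (0.267) and Gzma (0.269) lay below that limit, so a zero of these genes says little. Those of Cd3e (1.02), Cd3g (1.43) and Klrb1c (1.65) lay above it. What the zeros mean for these cells was not tested. Because EGF replicate 5 stood apart in genes with a count, results for the 9 genes are given with all 10 libraries and without it. Over all 12874 genes tested with edgeR, 1 gene was higher with EGF (0.00777%) and 0 genes were lower (0%) at an adjusted p under 0.05, and without that library 4 of 13104 genes were higher (0.0305%) and 4 lower (0.0305%).

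Per length of exon, Meis1 was the highest of the 9 genes and Hoxb5 the lowest. In CPM per kilobase of exon (RPKM), the mean over the 10 libraries was 23.8 ± 4.39 (SD, n = 10) for Meis1, 16.4 ± 3.14 for Hoxa7 and 11.7 ± 2.57 for Hoxa9. These levels stood at percentiles 87.0, 79.7 and 71.3 of all genes tested. Hoxa5 followed at 5.40 ± 1.21 RPKM, Hoxb4 at 4.05 ± 1.02 and Hoxa10 at 3.52 ± 1.05. Pbx3 was at 2.12 ± 0.796 RPKM, Hoxb3 at 1.21 ± 0.603 and Hoxb5 at 0.862 ± 1.26. Of the 8 pairs of neighbours in this order, only Hoxa9 and Hoxa5 had ranges over the 10 libraries that did not overlap: 9.42 to 17.8 RPKM for Hoxa9 and 3.42 to 7.46 for Hoxa5. Meis1, Hoxa7 and Hoxa9 were thus set apart from the other 6 genes, while neighbours within each step overlapped. Without EGF replicate 5, Hoxa7 (13.5 RPKM or more) and Hoxa9 (13.4 RPKM or less) did not overlap either. With the longest annotated transcript as the length, the same 3 genes led, and Pbx3 moved from the seventh place to the fifth. On that length the ranges of Hoxa7 and Hoxa9 overlapped, also without EGF replicate 5.

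With EGF, 8 of the 9 genes had a log2 fold change above 0, where 48.5% of all genes tested did. Among the 8, Hoxb5 passed the filter and lay above 0 only because of EGF replicate 5. The median over the 9 genes was 0.27, and that over all genes -0.01. By limma-voom 6 of the 9 were above 0 and their median was 0.17. None of the 9 passed the threshold in edgeR, limma-voom or DESeq2, which gave no adjusted p for Hoxb3 and Hoxb5. At an unadjusted p under 0.05 edgeR had 2 members higher, Hoxa9 and Meis1, where 6.14% of all genes were, and 0 lower, where 2.73% were. Without EGF replicate 5, 7 of the 9 had a log2 fold change above 0 (50% of all genes), the median was 0.15, and 0 passed. The unadjusted p was then under 0.05 for 3 members on the higher side (8.38% of all genes) and for 1, Hoxb5, on the lower side (7.39%). Hoxb5 passed the filter there only through Saline libraries, so its p is not read as a result. In no member did all EGF libraries lie above or below all Saline libraries, with or without EGF replicate 5. Over all genes the shares that did were 1.62% higher and 1.65% lower, and 2.66% and 2.36% without that library. In bulk RNA, fewer cells of a type and less RNA per cell cannot be told apart.

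**Figure D1:**
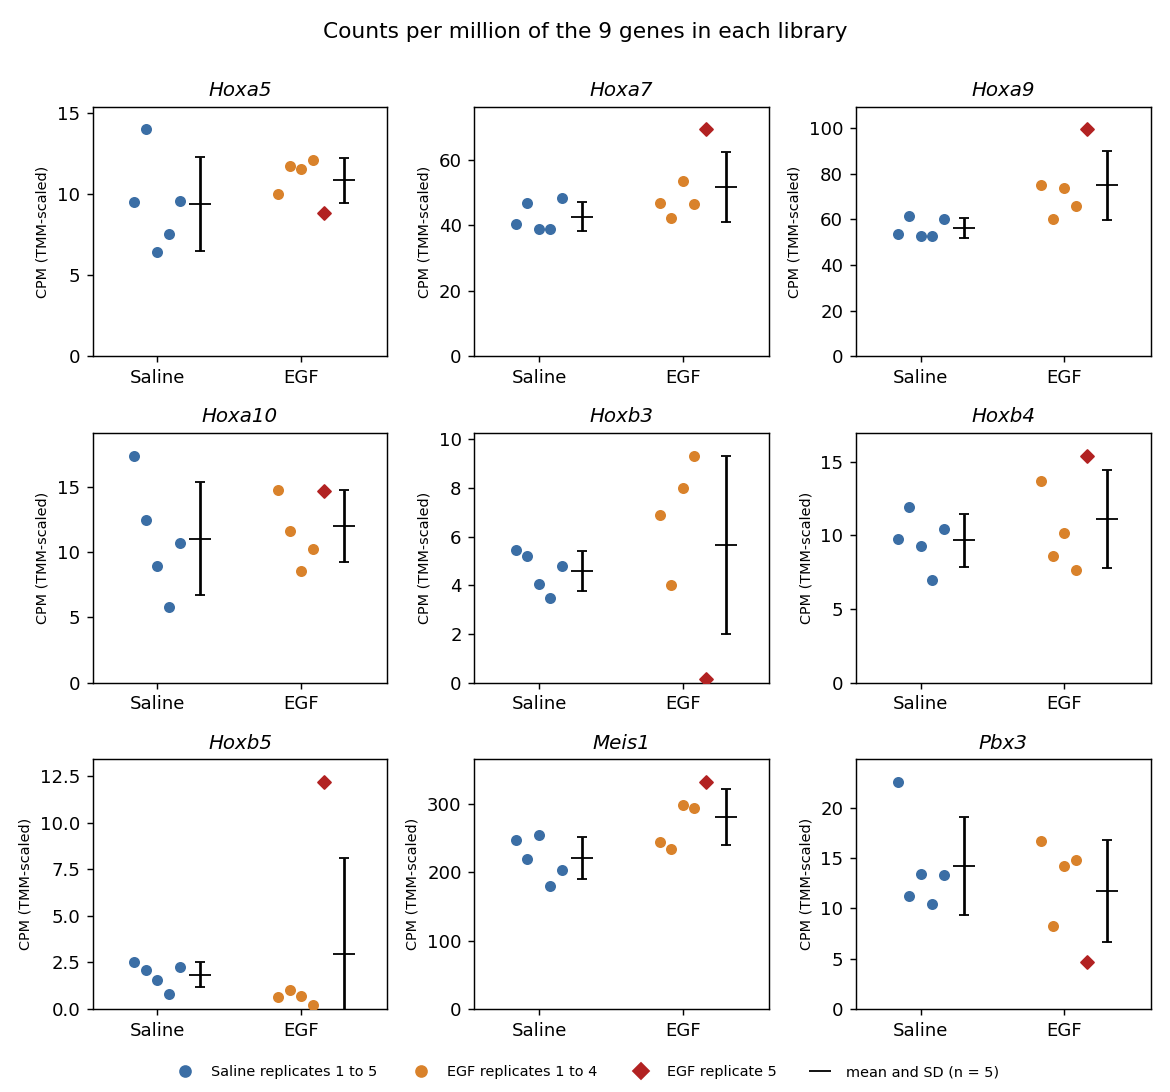
Level in CPM of each of the 9 genes, 1 panel per gene, with 1 point per library, the EGF replicate 5 library as a diamond, and the mean and SD of each group (n = 5). In Hoxa7, Hoxa9, Hoxb4, Hoxb5 and Meis1 the diamond is the highest of the 10 libraries, in Hoxb3 and Pbx3 the lowest, and the lower end of the Hoxb5 bar runs below the axis.

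Hoxa9 supports the self-renewal of stem cells and the expansion of myeloid progenitors. It had 53.7, 61.5, 52.9, 52.6 and 60.1 CPM in Saline replicates 1 to 5, and 74.9, 60.01, 73.9, 65.8 and 99.3 CPM in EGF replicates 1 to 5. In 4 of the 5 EGF libraries it was above the highest Saline library, and EGF replicate 2 lay within the Saline range. The group means were 56.1 ± 4.29 and 74.8 ± 15.0 CPM (SD, n = 5). The log2 fold change was 0.41 (SE 0.13, edgeR unadjusted p = 0.0102, adjusted p = 0.552). It was 0.29 (SE 0.09, adjusted p = 0.180) without EGF replicate 5. The adjusted p ranged from 0.0767 to 0.833 over the alternatives run, so the difference did not pass in any of them.

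Meis1 is needed to keep adult stem cells quiescent and limits their oxidative stress. It had 248, 219, 255, 181 and 204 CPM in the Saline libraries, and 244, 235, 299, 294 and 332 CPM in the EGF libraries, in replicate order. EGF replicates 3, 4 and 5 were above the highest Saline library, and EGF replicates 1 and 2 lay within the Saline range. The group means were 221 ± 30.9 and 281 ± 40.7 CPM (SD, n = 5), and the log2 fold change was 0.34 (SE 0.12, edgeR unadjusted p = 0.0186, adjusted p = 0.552). It was 0.27 (SE 0.11, adjusted p = 0.251) without EGF replicate 5. Of the exon bases of Meis1, 9.77% are shared with Gm37818 on the same strand and 8.51% with the antisense gene Gm16140. How the authors' counting split reads between such genes is not given in the sources used here.

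Hoxa7, a neighbour of Hoxa9 that is read in early myeloid and megakaryocyte-erythroid progenitors, had 40.5, 46.8, 38.7, 39.0 and 48.2 CPM in the Saline libraries. In the EGF libraries it had 46.6, 42.1, 53.4, 46.6 and 69.2 CPM. EGF replicates 3 and 5 were above the Saline range and the other 3 within it. Its log2 fold change was 0.27 (SE 0.15, edgeR adjusted p = 0.563), and 0.15 (SE 0.10, adjusted p = 0.482) without EGF replicate 5.

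Hoxa10, whose enforced expression expands progenitors, and Hoxa5, which bears on the balance of erythroid and myeloid fates, overlapped widely between the groups. Hoxa10 had 17.4, 12.4, 8.91, 5.78 and 10.7 CPM with saline and 14.8, 11.6, 8.56, 10.3 and 14.7 CPM with EGF. All 5 EGF values lay within the Saline range. Its log2 fold change was 0.12 (SE 0.30, edgeR adjusted p = 0.891), and 0.03 without EGF replicate 5. Hoxa5 had 9.52, 14.0, 6.42, 7.53 and 9.61 CPM with saline and 10.03, 11.7, 11.6, 12.2 and 8.82 CPM with EGF. Again every EGF value lay within the Saline range, and the log2 fold change was 0.21 (SE 0.25, adjusted p = 0.783), and 0.27 without EGF replicate 5.

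Hoxb4 is best known for expanding stem cells when its level is raised. It had 9.77, 11.9, 9.27, 6.99 and 10.4 CPM with saline and 13.7, 8.63, 10.1, 7.67 and 15.4 CPM with EGF. EGF replicates 1 and 5 lay above the Saline range and the other 3 within it. Its log2 fold change was 0.20 (SE 0.26, edgeR adjusted p = 0.799), and 0.05 without EGF replicate 5.

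Hoxb5, which marks long-term stem cells in the mouse, turned its direction with 1 library. Saline replicates 1 to 5 had 20, 16, 13, 6 and 17 counts of it and EGF replicates 1 to 5 had 5, 8, 5, 2 and 87, or 0.806 to 2.54 CPM with saline, 0.236 to 1.03 CPM in EGF replicates 1 to 4 and 12.2 CPM in EGF replicate 5. EGF replicates 1, 3 and 4 were below the Saline range, EGF replicate 2 was within it and EGF replicate 5 far above it. The log2 fold change was 0.67 (SE 0.94, edgeR adjusted p = 0.809) with all libraries and -1.50 (SE 0.48, adjusted p = 0.193) without EGF replicate 5. Without that library Hoxb5 passed the filter on low counts only through Saline libraries, so the -1.50 is given as a value only. With all libraries it passed only through EGF replicate 5 added to Saline libraries, so the 0.67 too is a value only. Counting alone gives a coefficient of variation of 44.7% at the mean of 5 counts of EGF replicates 1 to 4, and the observed one was 50.2%.

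Hoxb3, which overlaps Hoxb4 in function in stem cells, went the opposite way in EGF replicate 5. It had 5.46, 5.19, 4.04, 3.49 and 4.81 CPM with saline and 6.90, 3.99, 7.99, 9.32 and 0.140 CPM with EGF, the last from 1 count. EGF replicates 1, 3 and 4 were above the Saline range, EGF replicate 2 within it and EGF replicate 5 below it. With all libraries its log2 fold change was 0.30 (SE 0.65, edgeR adjusted p = 0.871), and 0.62 (SE 0.25, adjusted p = 0.271) without EGF replicate 5. Of the exon bases of Hoxb3, 52.9% are shared with the antisense gene Hoxb3os, and the strand setting of the counting is not given in the sources used here, so reads of the pair cannot be told apart there. Hoxb3os had 5.11 to 8.76 CPM with saline, 5.92 to 10.5 CPM in EGF replicates 1 to 4 and 31.5 CPM in EGF replicate 5. The share of Hoxb3 in the counts of the pair was 38.2% to 52.9% in 9 libraries and 0.443% in EGF replicate 5, with an exact Clopper-Pearson 95% interval of 0.0112% to 2.44% that covers counting error only. Hoxa7 shares 20.4% of its exon bases with the antisense Hoxaas3 but took 97.1% to 99.7% of the counts of that pair, and Hoxb5 shares 3.59% with Hoxb5os.

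Pbx3, the PBX partner that works with HOXA9 and MEIS1 in leukemia cells, was the member with a log2 fold change below 0. It had 22.6, 11.3, 13.4, 10.5 and 13.4 CPM with saline and 16.7, 8.24, 14.3, 14.9 and 4.62 CPM with EGF. Saline replicate 1 was the highest library, EGF replicates 2 and 5 lay below the Saline range and the other 3 within it. The log2 fold change was -0.28 (SE 0.36, edgeR adjusted p = 0.794), and -0.08 (SE 0.25, adjusted p = 0.911) without EGF replicate 5.

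**Figure D2:**
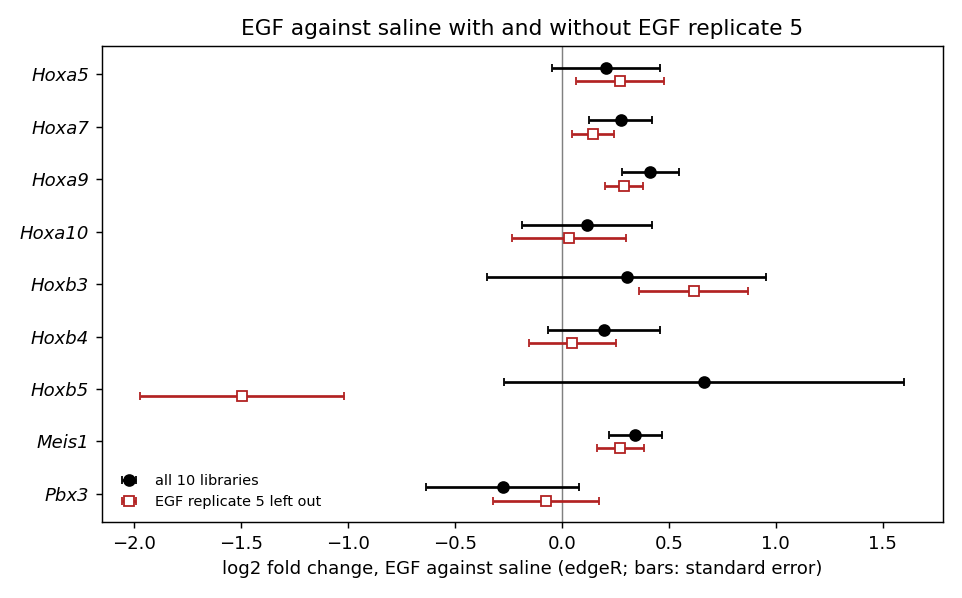
Log2 fold change of EGF against saline for each of the 9 genes (edgeR), with all 10 libraries as filled circles and without EGF replicate 5 as open squares, bars giving the standard error. Hoxb5 moved from 0.67 to -1.50 when that library was left out, and the other 8 genes kept their side of 0.

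The members varied between libraries by more than counting alone gives. The ratio of the observed coefficient of variation to the Poisson one had a median of 1.93 over the 9 genes in the Saline group, 4.14 in the EGF group and 2.32 in EGF replicates 1 to 4. Meis1, with the most counts, had a ratio of 5.81 in the Saline group and 5.66 in EGF replicates 1 to 4. Hoxb3 in the Saline group had 1.06 and Hoxa5 in EGF replicates 1 to 4 had 0.765, so their libraries differed by about what counting gives.

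Hoxa9 and Meis1, whose proteins bind DNA together, were compared over libraries, the 1 pair for which a correlation was tested. Over the 10 libraries Pearson's r was 0.71 (permutation p = 0.0190) and Spearman's rho 0.58 (permutation p = 0.0867). Without the 2 libraries farthest from the median of Hoxa9, EGF replicates 5 and 1, r was 0.61 (n = 8, exact permutation p = 0.104). For the deviations from the group means, r was 0.44 (permutation p = 0.210) with all libraries and 0.08 (n = 9, exact permutation p = 0.814) without EGF replicate 5. Leaving out EGF replicate 5 alone gave r = 0.53 (n = 9, exact permutation p = 0.141). With these libraries left out the pooled r of Hoxa9 with Meis1 was 0.53 or 0.61 and p no longer passed 0.05, so these data do not settle whether the relation holds without EGF replicate 5 or within the groups. Per kilobase, the level of Meis1 was 1.73 to 2.55 times that of Hoxa9 across the 10 libraries.

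**Figure D3:**
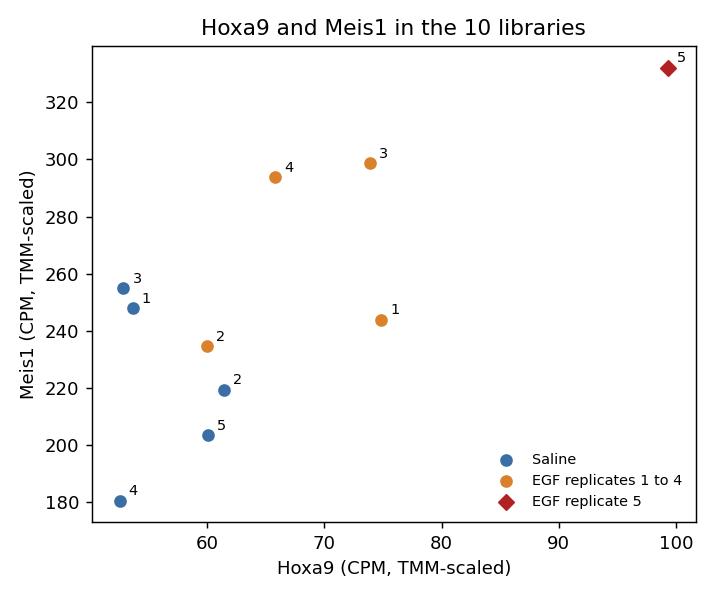
Level in CPM of Hoxa9 (x axis) and Meis1 (y axis), 1 point per library with its replicate number. EGF replicate 5 lies at the top right, at 99.3 CPM of Hoxa9 and 332 CPM of Meis1, and Saline replicate 4 at the lower left, at 52.6 and 181 CPM.

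The genes whose pattern over the 10 libraries was most like that of Meis1, among 5232 protein-coding genes compared by Spearman's rho of log2 CPM, were Ddx11 (rho 0.98), Atm (0.96) and Pign (0.95). Without EGF replicate 5 the values for these genes were 0.97, 0.95 and 0.93. For Hoxa7 they were Gm15446 (0.94), Spef1 (0.93) and Ncoa2 (0.89), and 0.92, 0.92 and 0.85 without it. Points of 1 library share its depth and composition, and no test is attached to these values.

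Of all 39 HOX genes of the clusters, 23 had a count and 16 had none in any library. A count of 0 over the 10 libraries together allows a level of up to 0.0388 CPM, for counting error only. The HOXA cluster had counts at 9 of 11 genes, the HOXB cluster at 8 of 10, the HOXC cluster at 5 of 9 with 70 counts in all, and the HOXD cluster at 1 of 9 with 7 counts. Hoxa7, Hoxa9 and Hoxa10 held 71.4% of the 13372 HOX counts, and the 7 HOX members 87.5%. Along HOXA the level per kilobase was highest at Hoxa7 and Hoxa9 and ended at Hoxa10, with Hoxa11 and Hoxa13 at 0. Along HOXB it was highest at Hoxb4, and Hoxb1 and Hoxb13 were at 0.

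**Figure D4:**
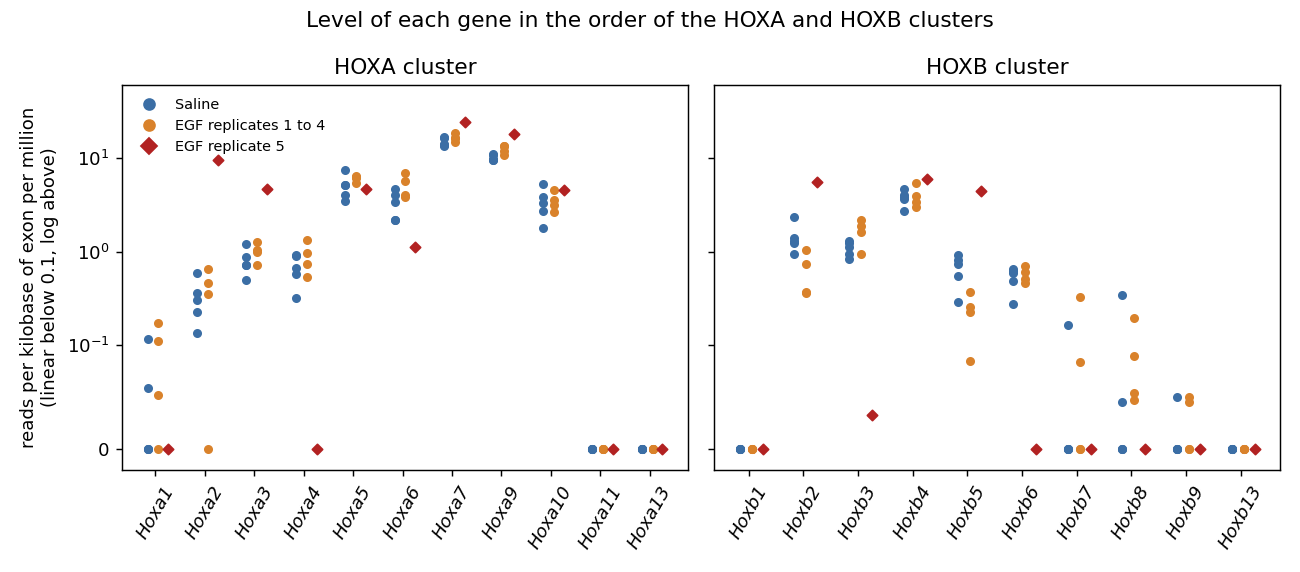
Level per kilobase of exon (RPKM, on an axis that is linear near 0 and logarithmic above) of each HOXA and HOXB gene in cluster order, 1 point per library, with EGF replicate 5 as a diamond. Levels peak at Hoxa7 (mean 16.4) and Hoxa9 (11.7) in HOXA and at Hoxb4 (4.05) in HOXB, and the diamond lies apart at Hoxa2, Hoxa3, Hoxb2, Hoxb3 and Hoxb5.

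Outside the members, 3 of the 32 other HOX genes were tested with all libraries, and 0 passed in edgeR or limma-voom or had an unadjusted edgeR p under 0.05. DESeq2 did not call Hoxa3 and gave no adjusted p for Hoxa6 and Hoxb2. Of 4 tested without EGF replicate 5, 0 passed in edgeR and 1, Hoxb2, had an unadjusted p under 0.05. At that p 7.39% of all genes were lower. Hoxa3, an anterior gene of the A cluster, had 2.96 to 7.23 CPM with saline, 4.36 to 7.52 CPM in EGF replicates 1 to 4 and 28.2 CPM in EGF replicate 5. Its log2 fold change was 1.11 (SE 0.52, edgeR adjusted p = 0.552), and 0.32 without that library. Genes on the opposite strand share 25.4% of the exon bases of Hoxa3. Hoxb2, beside Hoxb3, had 3.24 to 8.12 CPM with saline, 1.25 to 3.61 in EGF replicates 1 to 4 and 19.5 CPM in EGF replicate 5, and its log2 fold change went from 0.17 (SE 0.73, adjusted p = 0.935) to -1.20 (SE 0.37, adjusted p = 0.188) without it. Of its exon bases, 27.3% are shared with the antisense Hoxb3os, so the limit given for Hoxb3 holds for Hoxb2 too. Hoxa6 had a log2 fold change of 0.39 (SE 0.47, adjusted p = 0.772), and 0.63 without it. Hoxa2 had 0 to 8 counts in 9 libraries and 119 in EGF replicate 5, while Hoxa4 (4 to 17 counts in the other libraries) and Hoxb6 (4 to 11) had 0 there, which allows up to 0.420 CPM. EGF replicate 5 was thus high at Hoxa2, Hoxa3, Hoxb2 and Hoxb5 and low or at 0 at Hoxa4, Hoxa6, Hoxb3 and Hoxb6.

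Of 13 other genes of the TALE family and its cofactors, all 13 had a count, 7 were tested and 0 passed in edgeR, DESeq2 or limma-voom, with 1 at an unadjusted edgeR p under 0.05 (2 without EGF replicate 5). On the side above 0 were 6 of the 7, and the median log2 fold change was 0.15 (5 above 0 and a median of 0.15 without EGF replicate 5). Over all genes 48.5% were above 0, and 6.14% were higher and 2.73% lower at that p. The shares were 50%, 8.38% and 7.39% without EGF replicate 5. Tgif1, a TALE repressor, had 37.3 ± 4.45 CPM with saline and 45.6 ± 4.61 CPM with EGF, and a log2 fold change of 0.29 (SE 0.12, edgeR unadjusted p = 0.0327, adjusted p = 0.552), and 0.34 (adjusted p = 0.173) without EGF replicate 5. The log2 fold change was 0.17 for Pbx2, 0.16 for Pbx4, -0.16 for Pknox1, 0.03 for Tgif2 and 0.09 for the PBX-binding protein gene Pbxip1. Of these 5, Pbx2 was at -0.07 without EGF replicate 5 and the other 4 kept their side of 0.

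Of 45 regulators of HOX genes, among them the MLL and Polycomb complexes that hold HOX chromatin open or closed, 42 were tested, 28 had a log2 fold change above 0 and the median was 0.08. None passed in edgeR, DESeq2 or limma-voom, and at an unadjusted edgeR p under 0.05 there were 4 higher and 1 lower. Over all genes 48.5% were above 0, and 6.14% were higher and 2.73% lower at that p. The shares were 50%, 8.38% and 7.39% without EGF replicate 5. Without that library, 19 regulators were above 0, the median was -0.02, and 5 were higher and 2 lower at that p. Those with the smallest p were Dpy30, a core subunit of the MLL complexes (log2 fold change -0.34, SE 0.11), the H3K79 methyltransferase gene Dot1l (0.28, SE 0.11), the Polycomb cofactor gene Jarid2 (0.29, SE 0.11) and the H3K4 methyltransferase gene Kmt2d (0.19, SE 0.07), each with an edgeR adjusted p of 0.552. These 4 values were -0.27, 0.20, 0.20 and 0.18 without EGF replicate 5. Of 35 genes reported as HOXA9 and MEIS1 targets, 33 were tested and 19 were above 0, with a median of 0.08 (0.03 without EGF replicate 5). None passed in edgeR, limma-voom or DESeq2, which gave no adjusted p for 1 of them. At an unadjusted edgeR p under 0.05 there were 4 targets higher and 1 lower, and 6 and 2 without EGF replicate 5. The shares over all genes are those given for the regulators. Sox4, a progenitor transcription factor gene, was at 380 ± 34.2 CPM with saline and 479 ± 49.6 CPM with EGF (log2 fold change 0.33, SE 0.09, unadjusted p = 0.00463, edgeR adjusted p = 0.552). Eya1, Trib2 and the stem cell factor receptor gene Kit had log2 fold changes of 0.44, 0.99 and 0.18, with the same adjusted p, and of 0.41, 0.87 and 0.18 without EGF replicate 5. DESeq2 without EGF replicate 5, a fit added after seeing the data, called 2 of the targets higher. Over the 13104 genes that passed the filter it called 183 higher and 130 lower. The 2 targets were Sox4 (adjusted p = 0.0230) and Runx1, a regulator of blood stem cell emergence that is named here after its value was seen. Runx1 was at 161 CPM in EGF replicate 5, below the 172 to 191 CPM of the Saline libraries. With all libraries its edgeR adjusted p was 0.568.

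Granule genes of neutrophil precursors, cells in which HOXA genes are being shut down, were examined in the same libraries. Of the 11 neutrophil markers all 11 had counts, 9 were tested, 5 had a log2 fold change below 0 and 0 passed in edgeR. At an unadjusted p under 0.05, 4 were lower, where 2.73% of all genes were. Without EGF replicate 5, 10 were tested and all 10 were below 0, with a median of -1.43, where 50% of all genes were above 0. Of these, 0 passed in edgeR and 6 had an unadjusted p under 0.05, where 7.39% of all genes were lower at that p. The added gene, Mmp8, had at most 0.90 CPM with EGF and passed the filter only through Saline libraries. It is counted in the 10, in the median and in the 6, so its part in these values was set by the filter and is no support. The summed level of the 11 markers was 1656 to 5762 CPM in the Saline libraries, 1754 to 2571 CPM in EGF replicates 1 to 4 and 2819 CPM in EGF replicate 5, where Retnlg was at 0. The log2 fold change was -1.11 for Prtn3 (DESeq2 adjusted p = 0.0230), -0.91 for Elane, -0.81 for Ctsg and -0.63 for Mpo, and -0.95, -0.98, -0.84 and -0.66 without EGF replicate 5. S100a8 was at -1.58. The other 4 tested had values above 0, as Hoxa9 and Meis1 did: Ltf 0.74, Ngp 0.28, S100a9 0.26 and Camp 0.19. Those 4 were below 0 without EGF replicate 5. B and plasma cell markers, 8 of 8 with counts, summed to 691 to 1480 CPM with saline, 447 to 918 CPM in EGF replicates 1 to 4 and 197 CPM in EGF replicate 5. Most of the sum was Jchain, at 583 to 1321 CPM with saline and 97.4 CPM in EGF replicate 5. In that library Cd79b (30.4 CPM) and Mzb1 (5.74 CPM) were above their Saline ranges of 8.56 to 14.8 and 1.19 to 2.55 CPM. The rest of the 8 were below theirs. The part of neutrophil precursors and of B and plasma cells in the values of Hoxa9 and Meis1 was not tested.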

How the data were processed

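RNA of 10 HSPC libraries, 5 Saline and 5 EGF, was sequenced. Per the labels' protocols, ribosomal RNA was depleted before PCR-amplified libraries were made. STAR and bcl2fastq 2.17 are named in the submitters' processing notes, with GRCm38 and mm10 as builds. Neither a counting tool nor a strand setting is given in the sources used here. The authors deposited whole-number counts of reads per gene, not normalized, for the same 55573 genes in each library. The members and gene lists were chosen with earlier results of these data known.

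All genes were fitted with edgeR 4.0.16 in R 4.3.3: TMM scaling, filterByExpr with a minimum count of 10, the quasi-likelihood test of EGF against saline, and Benjamini-Hochberg adjustment over all genes tested, with a threshold of 0.05. Standard errors came from the F statistic. CPM values were TMM-scaled, and RPKM divided them by the union of exons in GENCODE M21, which also gave positions and exon overlaps. Log2 CPM for correlations used a prior count of 2. Correlations over 10 libraries were tested with 100000 permutations, and those over fewer by exact enumeration (scipy 1.17.1). No 2 libraries were repeats of each other (lowest chi-square per degree of freedom 5.94).

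Beside the 9 members, each list's genes with the smallest unadjusted p were named, up to 4, and from the other HOX and TALE lists every gene with a mean of at least 1 CPM; for the 2 members with the highest level per kilobase, the 3 genes with the most similar pattern. Of the genes this rule takes, 1 is not reported here. Neutrophil markers were named after their values were seen. The fit was repeated with RLE, library size and upper quartile scaling, no filter, 1 CPM in 5 libraries, DESeq2 1.42.0, limma-voom 3.58.1 with and without quality weights, a robust fit, the replicate number as a block, each library left out, and EGF replicates 3 and 4 or 3 to 5 left out. Fits by DESeq2 without EGF replicate 5, and with the block and no replicate 5, were added after seeing the data. Counts were simulated for the tested genes with 50 genes changed at each fold, and 12514 genes passed the filter again. Of each 50, edgeR recovered 16% at a 1.5-fold change, 58% at 2-fold, 70% at 4-fold and 86% at 8-fold, with 8 false calls.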

Additional observations from a re-analysis of the deposited data

Results flagged for a closer look

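In 46 groups of 5 libraries the highest or lowest value was compared with the others by Dixon's test, whose 95% critical value is 0.71 for 5 samples. Chance alone marks about 1 in 20 such groups, and 7 were marked here, 6 of them in EGF replicate 5. In that library Hoxb5 was at 12.2 CPM, Hoxa2 at 16.7, Hoxa3 at 28.2, Hoxb2 at 19.5 and Hoxb3os at 31.5 CPM, each far above the other 4 EGF libraries. It also had the fewest genes with a count, 12731. In the Saline group Pbx3 stood apart in replicate 1, at 22.6 CPM.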

How the results depend on the processing

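Under all alternatives run, 0 of the 9 members passed the threshold, and of their 215 alternative log2 fold changes 204 kept their direction and 11 reversed; the causes were not tested. With the replicate block 6 of the 9 were above 0 with a median of 0.17, and by DESeq2 without EGF replicate 5 the median was 0.15. Hoxa10 ranged from -0.047 (without Saline replicate 4) to 0.34 with 1 library left out. Hoxb3 was at -0.38 with limma-voom, -0.072 with the replicate block and -0.32 without EGF replicates 3 and 4. Hoxb5 was at -0.68 with limma-voom, -1.28 with quality weights, -0.68 with the replicate block, -1.50 to 0.97 with 1 library left out, the lowest without EGF replicate 5 (-1.52 there with DESeq2), and -1.15 without EGF replicates 3 to 5. Pbx3 was at 0.020 with quality weights. Of the other genes, Hoxb2 was at -0.65 with limma-voom, -1.21 with quality weights, -0.62 with the replicate block, -1.20 to 0.42 with 1 library left out, the lowest without EGF replicate 5 (-1.20 there with DESeq2), -1.22 with the block and no replicate 5, and -1.04 without EGF replicates 3 to 5. Pbx2 was at -0.047 with quality weights, -0.065 (without EGF replicate 5) to 0.24 with 1 library left out, and without replicate 5 at -0.063 with DESeq2 and -0.064 with the block. Pknox1 was at 0.010 with quality weights and 0.036 without EGF replicates 3 to 5, where Hoxb3os was at -0.051. Hoxa6 was at -0.13 without EGF replicates 3 and 4. Tgif2 was at -0.0053 with limma-voom, -0.010 with the block, -0.12 (without EGF replicate 3) to 0.16 with 1 library left out, -0.28 without both EGF replicates 3 and 4 and -0.12 without 3 to 5. Over all genes, 0 were higher with library size scaling, with the replicate block, with the block and no replicate 5, and without EGF replicates 3 and 4. DESeq2 called 34 higher and 18 lower (183 and 130 without EGF replicate 5), and quality weights 8 and 4. Leaving out 1 library gave 0 to 4 higher and 0 to 4 lower. Per kilobase of the exon union, 2 pairs of neighbours in level did not overlap without EGF replicate 5, against 1 pair with it. The second pair, Hoxa7 and Hoxa9, overlapped with the longest transcript as the length. The r of Hoxa9 with Meis1 was 0.53 (exact permutation p = 0.141) without EGF replicate 5 and at most 0.78, without Saline replicate 3. Same-numbered libraries showed no pairing in their deviations from the group means (correlations -0.08 to 0.02). EGF replicate 5 enters the EGF group mean, so this check could miss a pairing. Under the replicate block 0 members passed. Depth limits Hoxb5 and Hoxb3 most, which rest on 1 to 87 counts a library.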
